A study of Homo sapiens with 6 samples.

Results

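The genes followed here encode MHC class I molecules and the proteins that load them with peptide. They are the heavy chains HLA-B, HLA-C, HLA-E and HLA-F, the light chain B2M, the peptide transporter subunits TAP1 and TAP2, tapasin (TAPBP) and the immunoproteasome subunit PSMB9. The 9 genes were picked by symbol from the 23180 gene symbols with counts. For each gene the transcript with the highest total over the 6 samples stood for the gene. RNA-Seq was performed on A549, an established human lung adenocarcinoma cell line, unmodified in genotype (WT) and at passage 11. 3 samples had received siControl, and the other 3 had received siKMT9α#1, which targets the mRNA of N6AMT1, the gene of the catalytic subunit of the histone methyltransferase KMT9. Both siRNAs were transfected at 65 nM, and the cells were harvested 3 days later. The comparison therefore rests on 1 cell line and 1 targeting siRNA, and it asks how the mRNA of these genes changed when KMT9α was depleted.

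A class I molecule is a heavy chain held together with β2-microglobulin, and it shows a short peptide from inside the cell to T cells and natural killer cells. Proteasomes cut the peptides, the TAP1/TAP2 heterodimer carries them into the endoplasmic reticulum, and tapasin holds an empty class I molecule next to the transporter until a peptide is bound. HLA-B and HLA-C are classical, highly polymorphic heavy chains, whereas HLA-E and HLA-F vary little between people, and HLA-E is known as a ligand of receptors on natural killer cells. Most of these genes are known to be induced by interferons and, through promoter elements called X and Y boxes, by the factor NLRC5.

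8 of the 9 genes lie in the MHC region on chromosome 6, where the span from HLA-F to TAPBP in hg19 is 3.59 Mb, and B2M lies on chromosome 15. All 9 are annotated as protein-coding. Promoter stretches are printed because members whose promoters share the same short elements differed in the direction of their change. The sequences come from RefSeq on GRCh38.p14, a later build than the hg19 of the counts, in windows from 250 bases before to 50 bases after the transcription start. These starts are not in every case those of the counted transcripts. The starts of TAP1 and PSMB9, for one, lie farther apart here than in the counts. A printed stretch can therefore lie inside a counted transcript, and motifs outside a window were not scored for its gene. 8 of the 9 members matched that table, and HLA-E did not. Each stretch is written 5′ to 3′ on the strand of its gene, and capitals mark the letters of a motif found on either strand. The motifs searched on both strands were an interferon-stimulated response element (ISRE, GAAA, then any 2 bases, then GAAA again), the core of the X2 box (TGACG), the Y box (ATTGG) and the NF-kB consensus. Matches of different motifs did not overlap in any member, whereas 2 copies of the ISRE overlap in TAP1, in TAPBP and in B2M.
HLA-B, chr6:31357256-31357285, minus strand, X2 core and Y box: TGACGcgtccccacttcccactcccATTGG
HLA-C, chr6:31272168-31272197, minus strand, X2 core and 2 Y boxes: TGACGcgtccCCAATtcccactcccATTGG
TAP1, chr6:32853823-32853838, minus strand, ISRE on the opposite strand: TTTCGATTTCGCTTTC
TAP2, chr6:32838770-32838797, minus strand, ISRE and X2 core: GAAAGCGAAAgctgcccgagcccTGACG
TAPBP, chr6:33314083-33314098, minus strand, ISRE: GAAAGTGAAAGTGAAA
B2M, chr15:44711373-44711388, plus strand, ISRE: GAAAAGGAAACTGAAA
HLA-F, chr6:29723278-29723287, plus strand, ISRE on the opposite strand: TTTCTCTTTC

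The ISRE letters were found in the windows of 5 of the 8 members (HLA-F, B2M, TAP1, TAP2 and TAPBP) and in 3.57% of all 35116 promoter windows. The NF-kB consensus was found in 5 of the 8 (HLA-B, HLA-C, B2M, TAP1 and TAPBP) and in 5.91% of all windows. The X2 core was found in 5 of the 8 (HLA-B, HLA-C, B2M, TAP2 and PSMB9) and in 24.6% of all windows, and the Y box in 6 of the 8 (HLA-B, HLA-C, HLA-F, B2M, TAP1 and PSMB9) and in 34.6%. The Y box counted for TAP1 and for PSMB9 is the same one, at chr6:32853949-32853953 between these neighbouring genes. A match is a description of letters, and binding was not measured in these data.

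The samples were sequenced to comparable depth, with 15551780 to 18568634 counts over 1 transcript per gene in siControl and 13740098 to 19832394.5 in siKMT9α#1. N6AMT1 fell from 10.8 ± 0.62 to 3.15 ± 0.25 CPM (counts scaled to the size of each library, mean ± SD, n = 3), a log2 fold change of -1.77 (SE 0.12). Keratins KRT8 and KRT18 were abundant in every sample, and the summed level of 5 epithelial markers was 3214 to 3576 CPM in siControl and 1725 to 1816 CPM in siKMT9α#1, with 4 of the 5 lower and CDH1 higher. The leukocyte markers PTPRC, CD3E and LYZ had at most 4 counts in any sample and the endothelial markers PECAM1, VWF and CDH5 at most 12, while CD14 went from 3.55 to 1.92 CPM. Of the fibroblast markers, COL1A1 went from 4.28 to 2.79 CPM, PDGFRA averaged 0.878 and 0.855 CPM, and COL3A1 had at most 4 counts. The part of these marker changes in the results was not tested. In these bulk samples, fewer cells of a kind and less RNA per cell cannot be told apart. Library size alone, in place of TMM scaling, shifted the median of all genes by -0.11 on the log2 scale.

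The class I genes did not move as a group after KMT9α knock-down. TAP1, HLA-E, TAPBP and B2M rose, whereas TAP2, HLA-F and HLA-B fell. HLA-C was called lower as well, but that call was lost in 3 of the 6 fits that left out a sample, and its sign turned with offsets for GC content and length. By edgeR's quasi-likelihood test, adjusted by Benjamini-Hochberg over the 13877 genes tested, 8 of the 9 members had an adjusted p under 0.05, 4 in each direction, where 75.6% of all genes tested did (37.1% higher and 38.5% lower). A share of that size is near the background, so the count by itself is no result about these genes. All 9 had passed the filter on low counts. The threshold of the study, p under 1e-08 and an absolute log2 fold change above 0.26, was passed by TAP1 and HLA-E among the higher and TAP2 among the lower members, against a background of 24.2% of genes tested (13.5% higher and 10.7% lower). The CPM values of the groups did not overlap for any of the 9 members, which held for 77% of all genes tested. The median log2 fold change of the members was -0.14, beside -0.01 over all genes, and the median absolute change was 0.55, beside 0.47.

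**Figure D1:**
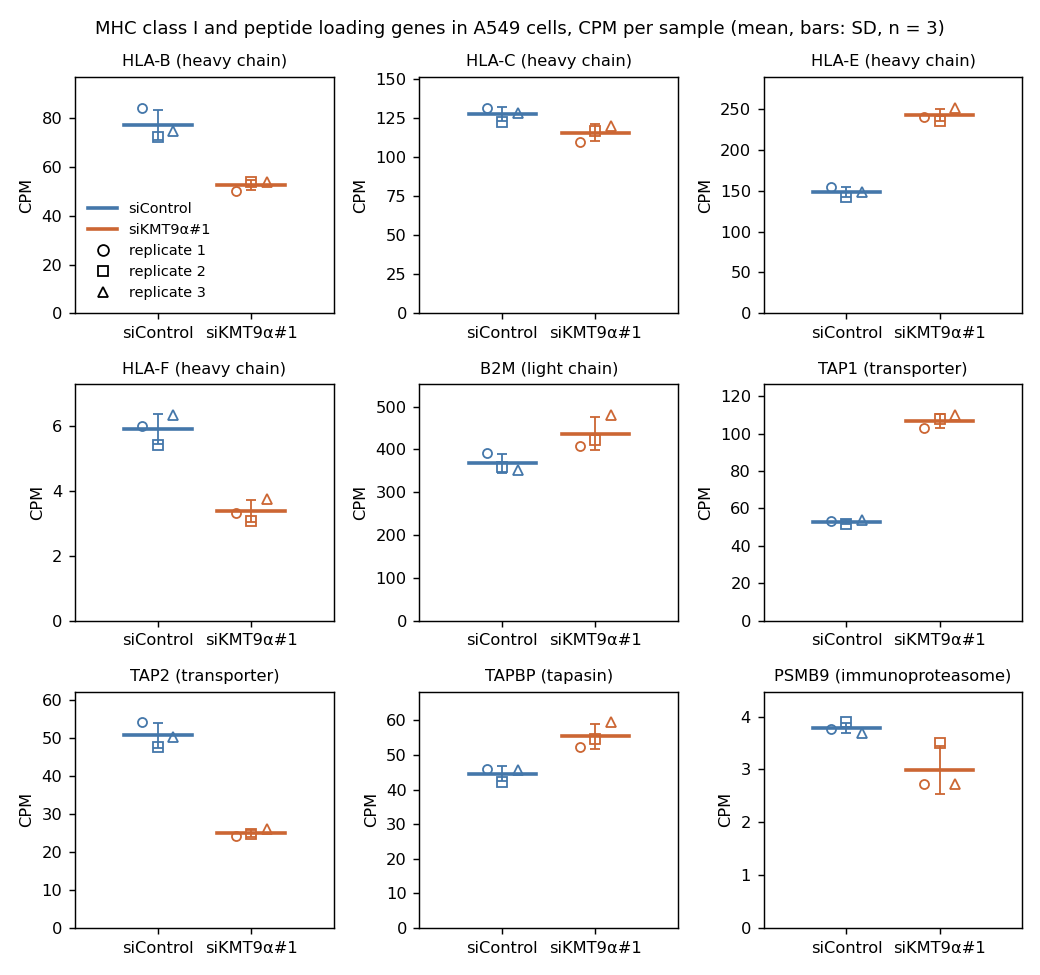
CPM (vertical axes, each starting at 0) of the 9 genes in the 3 siControl and 3 siKMT9α#1 samples. Points are samples with a symbol for each replicate number, lines are means and bars are SD. TAP1 and HLA-E lie higher and TAP2, HLA-B and HLA-F lower in siKMT9α#1, while the points of HLA-C and PSMB9 come close together.

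Among the heavy chains, HLA-E rose while HLA-B and HLA-F fell. HLA-E is on the plus strand of chromosome 6 (NM_005516, hg19, 30457183 to 30461982). Its level was 154.8, 141.8 and 147.9 CPM in siControl and 240.3, 235.6 and 250.9 CPM in siKMT9α#1. All knock-down samples were above all controls, and the gap was wider than the range within either group. The log2 fold change of HLA-E was 0.71 (SE 0.05), a 1.64-fold rise with an adjusted p of 1.21e-10 by edgeR's quasi-likelihood test. A larger absolute change was seen in 33.2% of the genes tested.

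HLA-B is on the minus strand (NM_005514, hg19 chromosome 6, 31321649 to 31324989). HLA-B was at 84.0, 72.2 and 74.6 CPM in siControl and at 50.0, 53.9 and 53.6 CPM in siKMT9α#1. The lowest control was well above the highest knock-down sample. The log2 fold change was -0.55 (SE 0.06), with an adjusted p of 1.27e-07 by edgeR's quasi-likelihood test. With offsets for the GC content and length of each gene, an alternative added after the data were seen, it was -0.30.

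HLA-C, the other classical heavy chain of this set, lies in the same stretch of the MHC as HLA-B (NM_002117, hg19 chromosome 6, 31236526 to 31239913, minus strand). The printed stretches of both genes hold the X2 core and a downstream Y box at the same spacing. HLA-C was at 131.6, 122.9 and 128.4 CPM in siControl and at 109.9, 117.1 and 120.2 CPM in siKMT9α#1. The groups did not overlap, but the lowest control and the highest knock-down sample were close. The log2 fold change was -0.14 (SE 0.05), with an adjusted p of 0.0170 by edgeR's quasi-likelihood test, and 82.7% of the genes tested changed more. This call did not hold up to every alternative. The adjusted p of HLA-C was 0.108 without siControl replicate 1, 0.0796 without siControl replicate 3 and 0.115 without siKMT9α#1 replicate 1, with log2 fold changes of -0.10, -0.13 and -0.10. With the GC and length offsets the sign turned, to 0.12. HLA-C therefore cannot be placed among the clear changes of either direction. The heavy chain genes are similar in sequence, and how the counting assigned reads that match several of them is not stated, so the division of reads between HLA-B, HLA-C, HLA-E and HLA-F is uncertain.

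HLA-F, the least abundant of the 4 heavy chains followed here, is on the plus strand (NM_001098479, hg19 chromosome 6, 29691117 to 29695073). It was at 6.00, 5.43 and 6.34 CPM in siControl and at 3.33, 3.07 and 3.77 CPM in siKMT9α#1, from 41.5 to 121.5 counts a sample. The log2 fold change was -0.79 (SE 0.14), with an adjusted p of 4.37e-05 by edgeR's quasi-likelihood test. Its other transcripts in the table, which share reads with it, changed by -0.89 (NM_018950) and -1.05 (NM_001098478) when every transcript was tested. The antisense gene HLA-F-AS1 overlaps HLA-F and was at 1.22 ± 0.17 and 0.827 ± 0.145 CPM, with a log2 fold change of -0.52 (SE 0.26) that did not pass (adjusted p 0.0884 by the same test). Whether the counting used the strand is not stated, so reads of both cannot be told apart.

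B2M, the light chain shared by all class I heavy chains, is encoded outside the MHC (NM_004048, hg19 chromosome 15, 45003685 to 45010357, plus strand). B2M was at 392.5, 358.8 and 350.8 CPM in siControl and at 407.5, 422.9 and 479.9 CPM in siKMT9α#1. The highest control and the lowest knock-down sample were close, and the knock-down samples spread more widely. B2M rose by 0.25 on the log2 scale (SE 0.06), with an adjusted p of 0.000906 by edgeR's quasi-likelihood test. The value moved with the scaling, to 0.15 with library size alone and 0.45 with the GC and length offsets.

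Because scaling factors cancel within a sample, each heavy chain was also set against B2M as a ratio of CPM per kb of transcript. HLA-E relative to B2M was 0.146, 0.146 and 0.156 in siControl and 0.218, 0.206 and 0.194 in siKMT9α#1, a log2 difference of 0.46. HLA-B relative to B2M went from 0.132 ± 0.004 to 0.076 ± 0.005 (SD, n = 3), a log2 difference of -0.80. HLA-E was thus the heavy chain whose ratio to B2M was higher in the knock-down, and HLA-B, HLA-C and HLA-F had lower ratios. The log2 differences were -0.39 for HLA-C and -1.06 for HLA-F. The groups did not overlap in any of the 4 ratios, each with an exact permutation p of 0.1 (two-sided), the smallest that 3 against 3 samples allow.

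The summed level of HLA-B, HLA-C, HLA-E and HLA-F did not differ detectably. It was 200.6, 182.2 and 190.2 CPM per kb in siControl and 195.4, 200.6 and 208.6 in siKMT9α#1, and the groups overlapped (exact permutation p = 0.3, two-sided). What differed was the division among the 4 genes. HLA-E made up 29.2%, 29.4% and 29.4% of the sum in the control samples and 46.4%, 44.4% and 45.4% in the knock-down samples. HLA-B went from 25.8% ± 0.92 to 16.7% ± 0.46, HLA-C from 42.8% ± 0.70 to 36.7% ± 0.69 and HLA-F from 2.07% ± 0.13 to 1.12% ± 0.09 (SD, n = 3). HLA-C held the largest share in every control sample and HLA-E in every knock-down sample. The shares of each gene did not overlap between groups (exact permutation p = 0.1, the smallest possible). As shares of 1 sum, they are not independent of each other. The sum relative to B2M was 0.510 ± 0.018 in siControl and 0.454 ± 0.024 in siKMT9α#1, without overlap (exact permutation p = 0.1).

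**Figure D2:**
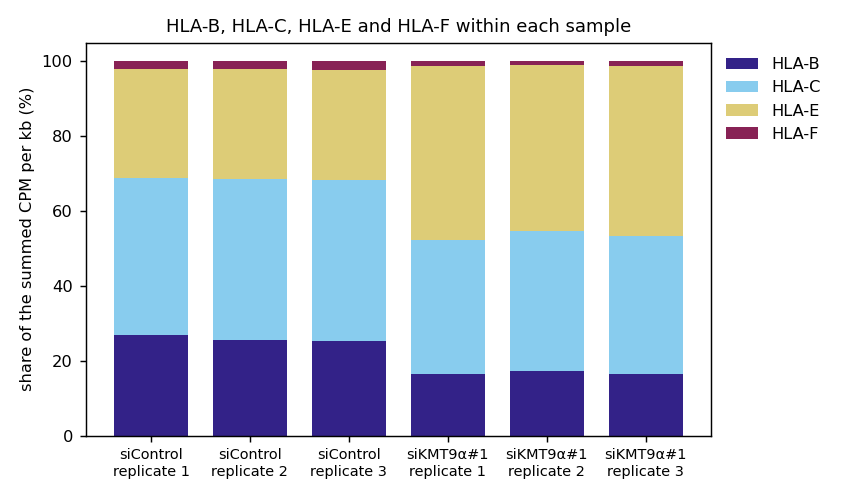
Share of the summed CPM per kb of HLA-B, HLA-C, HLA-E and HLA-F (vertical axis, percent) in each of the 6 samples, as stacked bars. HLA-E takes 29.2% to 29.4% in the siControl samples and 44.4% to 46.4% in the siKMT9α#1 samples, while the shares of the other heavy chains are smaller in siKMT9α#1.

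Both subunits of the peptide transporter changed strongly, and in opposite directions. TAP1 (NM_000593, hg19 chromosome 6, 32812986 to 32821748, minus strand) was at 53.2, 51.6 and 53.8 CPM in siControl and at 102.9, 107.9 and 109.8 CPM in siKMT9α#1. The log2 fold change was 1.02 (SE 0.05), a 2.02-fold rise with an adjusted p of 8.57e-13 by edgeR's quasi-likelihood test. This was the largest change of the 9 genes in either direction, together with that of TAP2, and 19.9% of the genes tested changed more. The range over the other 18 settings was 0.91 to 1.13.

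TAP2 (NM_000544, hg19 chromosome 6, 32793187 to 32806547, minus strand) was at 54.2, 47.8 and 50.2 CPM in siControl and at 24.2, 24.8 and 26.0 CPM in siKMT9α#1. The knock-down samples were all below the controls and close to each other. Its log2 fold change was -1.02 (SE 0.07), which left 0.494 of the control level, with an adjusted p of 4.28e-11 by edgeR's quasi-likelihood test. The second TAP2 transcript in the table, NM_018833, has another 3′ end and shares reads with the first, and it changed by -1.03. Over the other 18 settings, the change of TAP2 lay between -1.26 and -0.95.

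The ratio of TAP1 to TAP2, in CPM per kb, was 1.87, 2.06 and 2.04 in siControl and 8.11, 8.30 and 8.06 in siKMT9α#1. The log2 ratio was 2.04 higher in the knock-down, and the replicates of each group lay close together (exact permutation p = 0.1, the smallest possible). Both subunits are needed for a working transporter. The study also measured proteins by mass spectrometry in A549 cells given the same siRNAs, but those data were not used here, so the ratio is of mRNA only. TAP1 overlaps the antisense gene PSMB8-AS1 by 1292 bases. PSMB8-AS1 rose from 12.8 ± 0.17 to 24.0 ± 1.81 CPM, a log2 fold change of 0.92 (SE 0.08, adjusted p 4.58e-09 by edgeR's quasi-likelihood test). TAP1 averaged 52.9 CPM in siControl and 106.9 CPM in siKMT9α#1. Without a stated strand setting, reads in the shared bases cannot be assigned to either gene, and their part in the change of TAP1 was not tested.

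Tapasin, the chaperone that bridges TAP and the class I heavy chain, rose modestly. TAPBP (NM_003190, hg19 chromosome 6, 33267472 to 33282164, minus strand) was at 46.0, 42.2 and 45.6 CPM in siControl and at 52.3, 54.7 and 59.4 CPM in siKMT9α#1. The groups did not overlap. The log2 fold change was 0.32 (SE 0.06), with an adjusted p of 0.000115 by edgeR's quasi-likelihood test, and its other transcripts in the table changed by 0.33 (NM_172209) and 0.25 (NM_172208). In CPM per kb, TAPBP was at 1.31 ± 0.04 of TAP2 in siControl and 3.31 ± 0.09 in siKMT9α#1, and at 0.659 ± 0.019 and 0.406 ± 0.015 of TAP1 (SD, n = 3). The level of tapasin thus lay between those of the TAP subunits in both groups.

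**Figure D3:**
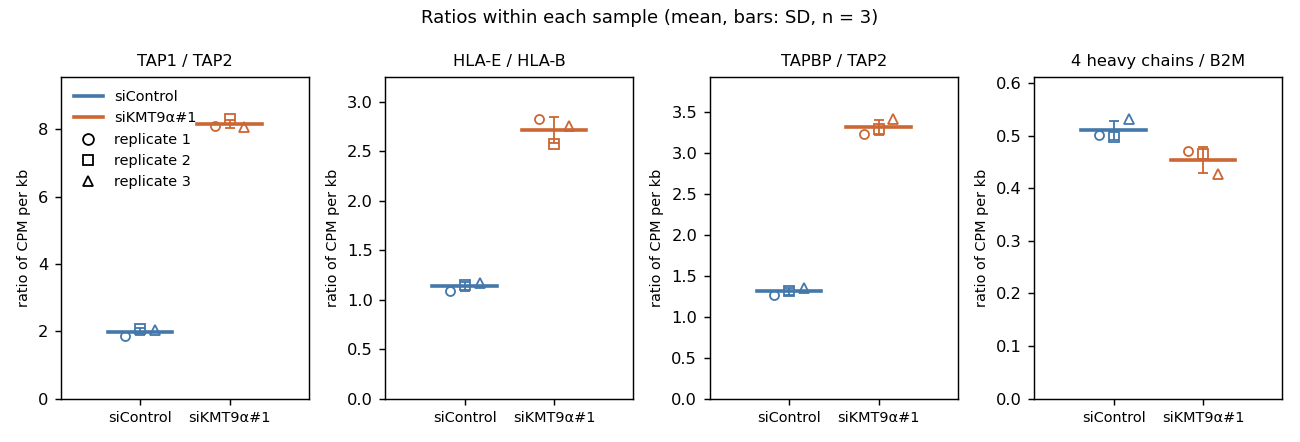
Ratios of CPM per kb within each sample (vertical axes, starting at 0) for TAP1 to TAP2, HLA-E to HLA-B, TAPBP to TAP2 and the summed 4 heavy chains to B2M. Points are samples, lines are means and bars are SD (n = 3). The first 3 ratios are higher and the last is lower in siKMT9α#1, with no overlap between the groups.

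PSMB9 encodes an interferon-inducible catalytic subunit of the immunoproteasome, which takes the place of PSMB6. PSMB9 (NM_002800, hg19 chromosome 6, 32821938 to 32827628, plus strand) lies head to head with TAP1, with 190 bases between the deposited starts. It was at 3.77, 3.89 and 3.69 CPM in siControl and at 2.72, 3.51 and 2.72 CPM in siKMT9α#1, from 36 to 71 counts a sample. Its log2 fold change was -0.35 (SE 0.16), which narrowly missed the threshold (adjusted p 0.0513 by edgeR's quasi-likelihood test). This call turned on several choices. Without siKMT9α#1 replicate 2 the change was -0.47, with an adjusted p of 0.0240 by the same test. With all samples kept and library size alone, it was -0.46, with an adjusted p of 0.0139 by that test. The level of TAP1 per kb was 4.94 ± 0.23 times that of PSMB9 in siControl and 12.8 ± 1.76 times in siKMT9α#1 (SD, n = 3), without overlap. The log2 ratio of this head-to-head pair was 1.37 higher in the knock-down (exact permutation p = 0.1, the smallest possible).

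In CPM per kb, the order in siControl was B2M (374.9 ± 22.6), HLA-C (81.7 ± 2.82), HLA-E (56.0 ± 2.47), HLA-B (49.4 ± 4.0), TAP1 (18.04 ± 0.38), TAPBP (11.9 ± 0.56), TAP2 (9.08 ± 0.57), HLA-F (3.95 ± 0.31) and PSMB9 (3.65 ± 0.10). The samples of HLA-E and HLA-B overlapped, as did those of HLA-F and PSMB9, so that these neighbours were not separated by their spread. In siKMT9α#1, B2M stayed highest (445.7 ± 38.9) and was followed by HLA-E (91.5 ± 2.97), HLA-C (74.0 ± 3.38), TAP1 (36.5 ± 1.23) and HLA-B (33.7 ± 1.38). The lower ranks were TAPBP (14.8 ± 0.97), TAP2 (4.47 ± 0.17), PSMB9 (2.88 ± 0.44) and HLA-F (2.26 ± 0.24), and no neighbours overlapped in this group. HLA-E and HLA-B, at like levels in the controls, were thus well apart after knock-down, with a ratio of 1.14 ± 0.04 in siControl and 2.72 ± 0.13 in siKMT9α#1. TAP1 was above HLA-B in the knock-down samples and below it in the control samples. Levels of HLA genes depend on how well reads of this cell line's alleles matched the reference, which was not tested.

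**Figure D4:**
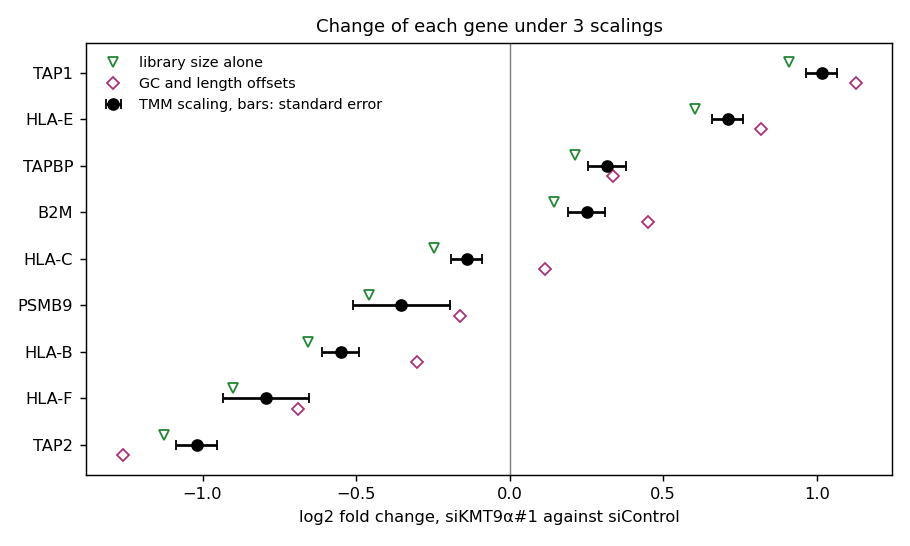
Log2 fold change (horizontal axis) of each of the 9 genes in siKMT9α#1 against siControl with TMM scaling (filled points, bars are SE), with library size alone (triangles) and with offsets for GC content and length (diamonds). HLA-C changes sign, from -0.14 with TMM to 0.12 with the offsets, and the other 8 genes keep theirs under these 3 scalings.

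Among other genes of peptide supply and loading, a list of 16, 15 were tested, of which 7 were higher, 5 lower and 3 not called, with a median log2 fold change of 0.16. Over all genes tested, 75.6% were called, 37.1% higher and 38.5% lower, so these counts are near the background. The largest change was in CANX (calnexin), the membrane chaperone that binds newly made heavy chains. CANX fell from 1610.2 ± 157.0 to 557.3 ± 47.5 CPM, a log2 fold change of -1.53 (SE 0.07, adjusted p 1.67e-13 by edgeR's quasi-likelihood test). Of the other members of the loading complex, PDIA3 (ERp57) rose by 0.43 on the log2 scale (SE 0.06), and CALR (calreticulin) was at 830.4 and 861.6 CPM without passing the test (adjusted p 0.339 by the same test). On the same scale, UGGT1, a folding sensor that returns glycoproteins to calreticulin and calnexin, rose by 0.56 (SE 0.06), and TAPBPL, a relative of tapasin that edits peptides outside the loading complex, rose by 0.86 (SE 0.14) from a low level of 3.60 CPM. The chaperones that meet class I heavy chains thus changed in both directions. ERAP1, the aminopeptidase that trims peptides in the endoplasmic reticulum, fell by 0.50 on the log2 scale (SE 0.07), and ERAP2 did not pass (0.25, SE 0.20, adjusted p 0.249 by edgeR's quasi-likelihood test).

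Of the other immunoproteasome subunits, PSMB8 was at 12.4 and 12.5 CPM (log2 fold change 0.02, SE 0.09, adjusted p 0.889 by edgeR's quasi-likelihood test), and PSMB10 fell by 0.32 on the log2 scale (SE 0.10). PSME2, a subunit of the proteasome activator PA28, rose by 0.53 on the log2 scale (SE 0.05) from 70.7 to 102.3 CPM. Of the 3 constitutive counterparts, PSMB6 and PSMB7 fell by 0.24 (SE 0.06) and 0.28 (SE 0.05) on the log2 scale, and PSMB5 was at 312.3 and 289.5 CPM (log2 fold change -0.11, SE 0.05, adjusted p 0.0607 by the same test). The ratio of PSMB9 to PSMB6, in CPM per kb, was 0.0105 ± 0.0005 in siControl and 0.0098 ± 0.0014 in siKMT9α#1 (SD, n = 3), and the groups overlapped (exact permutation p = 0.7). PSMB8 against PSMB5 (exact permutation p = 0.4) and PSMB10 against PSMB7 (exact permutation p = 0.7) overlapped too, so no change in the balance of immunoproteasome and constitutive subunits was detectable with 3 samples a group.

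Of 20 known regulators of class I transcription, 19 were tested, of which 8 were higher, 7 lower and 4 not called, with a median log2 fold change of 0.08. These counts too are near the shares over all genes (37.1% higher and 38.5% lower), and values are given for single genes. CIITA, the class II activator, did not pass the filter. NLRC5, the activator that acts at class I, B2M and TAP1 promoters, fell from 6.69 ± 0.64 to 4.58 ± 1.03 CPM, a log2 fold change of -0.57 (SE 0.15, adjusted p 0.00186 by edgeR's quasi-likelihood test). RFX5 and RFXAP, subunits of the RFX complex that binds the X box, fell by 0.21 (SE 0.08) and 0.96 (SE 0.11) on the log2 scale. ATF1, a factor of the family that binds the X2 core, rose by 1.74 on the log2 scale (SE 0.06) from 19.1 to 63.7 CPM. CREB1, of the same family, fell by 0.27 on that scale (SE 0.06) from 54.1 to 44.8 CPM. Among the interferon factors, on the log2 scale, IRF1 rose by 0.32 (SE 0.06), IRF2 by 0.84 (SE 0.08) and IRF3 by 0.45 (SE 0.07). IRF9, a DNA-binding factor of the type I interferon response, fell by 0.86 (SE 0.09). EZH2, a Polycomb methyltransferase, rose by 0.87 on that scale (SE 0.07).

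Interferon receptors and their kinases were mostly higher, while classical interferon-stimulated genes were mostly lower. Of 12 receptor and JAK pathway genes, 9 were higher, 1 lower and 2 not called (median log2 fold change 0.79), where 37.1% of all genes tested were higher and 38.5% lower. JAK1 rose by 1.45 on the log2 scale (SE 0.05) from 213.7 to 585.7 CPM, IFNGR2, a chain of the interferon-γ receptor, rose by 1.08 (SE 0.05), and IFNLR1, of the interferon-λ receptor, fell by 1.45 on the log2 scale (SE 0.12). The largest change was in SOCS3, a feedback inhibitor of JAK signalling, at 29.2 ± 1.41 and 240.9 ± 16.1 CPM (log2 fold change 3.04, SE 0.06). Of 20 interferon-stimulated genes, 13 were tested, of which 12 were lower and 1 was not called (median log2 fold change -1.21), where 38.5% of all genes tested were lower. OAS1, an antiviral sensor of double-stranded RNA, fell by 2.68 on the log2 scale (SE 0.09) from 51.5 to 8.13 CPM. On that scale, IFIT3 fell by 1.30 (SE 0.09), IFIT2 by 0.65 (SE 0.11) and OAS3 by 0.28 (SE 0.07). Several of the 13 were at only a few CPM in siControl. The threshold of the study was passed by 2 of the 13, both lower, where 10.7% of all genes tested passed it lower. TAP1, HLA-E, TAPBP and B2M thus rose in samples in which 12 of 13 listed interferon-stimulated genes were lower. TAP2, HLA-B and HLA-F were lower as those were.

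**Figure D5:**
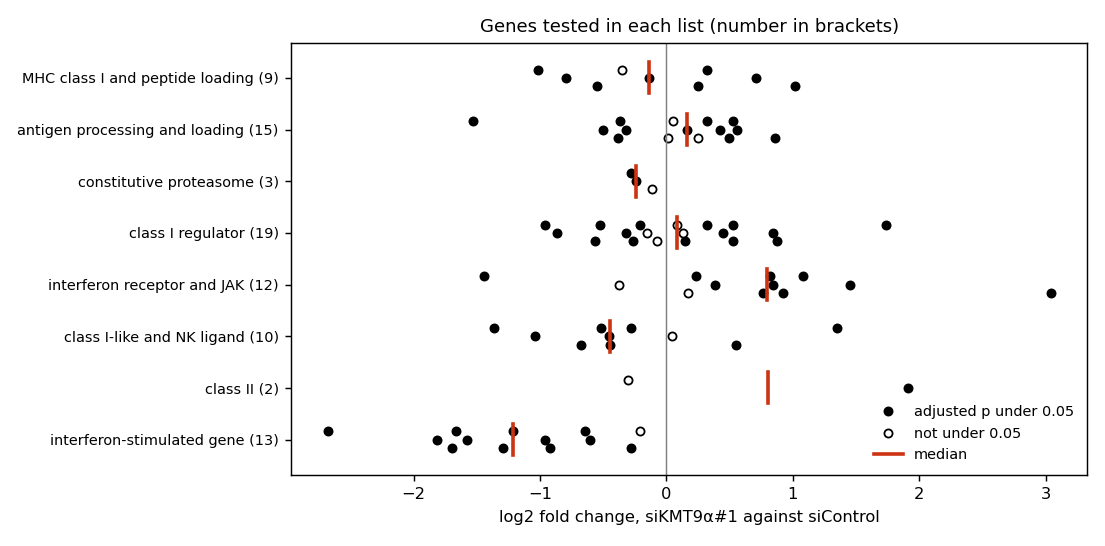
Log2 fold change (horizontal axis) of every tested gene in the 9 class I genes and in 7 lists of related genes (rows, number tested in brackets). Filled points had an adjusted p under 0.05, open points did not, and vertical marks are medians. The class I genes lie on both sides of 0 with a median of -0.14, the interferon receptor and JAK genes have a median of 0.79, and the interferon-stimulated genes have a median of -1.21.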

How the data were processed

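Per the methods of the study, the authors used STAR version 2.5 to map reads to hg19 and HOMER to count them on RefSeq transcripts. They deposited estimated counts per transcript and sample, which are not normalized, and 36.4% of these values were not whole. The counting options, strand setting and library type are not given in the sources used here. The deposited table also holds the authors' fold change, p-value and adjusted p-value of each transcript, none of which was used. Of 38767 rows, 1182 had no symbol and counts and were left out. The labels call the samples biological replicates without naming their cultures, so p-values measure the spread between these samples.

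Estimated counts were rounded and fitted with edgeR 4.0.16 in R 4.3.3 (TMM scaling, filterByExpr, two-sided quasi-likelihood F test, Benjamini-Hochberg adjustment over all genes tested). The biological coefficient of variation came to 4.47%, and the median SE of a log2 fold change was 0.08, so changes near that size were not detectable. CPM used the TMM factors, and CPM per kb divided by the deposited transcript length.

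The members and lists were chosen with earlier results of these data known. Named by rule were the 9 members, N6AMT1, 14 genes fixed by name, and from each list up to 4 genes with the largest change among those with an adjusted p under 0.05 and at least 10 CPM in a group. The 5 genes nearest to the mean profile of the members were also named. Results for a few genes that this rule or the marker lists include are not reported here. CDH1 and the marker genes, CREB1, IRF2, IRF3, HLA-F-AS1, PSMB8-AS1, HLA-DMA and HLA-DMB were named in addition, after their values were seen. Alternatives changed the test (likelihood-ratio or exact test of edgeR, or DESeq2 1.42.0), the scaling (none beyond library size, or RLE), the filter (none, or a minimum of 10 counts in all samples), the features (every transcript, or no alternate haplotypes), the rounding (doubled counts), the block (replicate number) and the samples (each left out in turn). Offsets for GC content and length were added after the data were seen. GC content (GRCh37 annotation) was known for 97.9% of the genes tested.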

Additional observations from a re-analysis of the deposited data

How the results depend on the processing

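TAP1, TAP2, HLA-E, HLA-B, HLA-F, B2M and TAPBP kept their direction and their call under all 18 alternatives, with log2 fold changes of 0.91 to 1.13, -1.26 to -0.95, 0.60 to 0.82, -0.66 to -0.30, -0.90 to -0.69, 0.15 to 0.45 and 0.21 to 0.36. HLA-C turned to 0.12 with GC and length offsets (adjusted p 0.0534) and lost its call in 3 of the 6 fits that left out a sample. PSMB9 passed in 4 alternatives: the likelihood-ratio test (adjusted p 0.0424), library size alone (0.0139), at least 10 counts in every sample (0.0393) and the fit without siKMT9α#1 replicate 2 (0.0240). Over all its alternatives the adjusted p of PSMB9 ran from 0.0139 to 0.357. The cause of these shifts was not tested.

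The median log2 fold change of the members was -0.25 with library size alone and 0.12 with the offsets. Genes with an adjusted p under 0.05 numbered 18897 with every transcript tested, against 10492, because more features entered the test. The threshold of the study was passed by 3357 genes, and by 5962 with the likelihood-ratio test, 5924 with the exact test, 6070 with no filter and 6767 with every transcript. With library size alone, 1516 higher and 1862 lower genes passed it, against 1878 and 1479. The members past it, 3 as reported, numbered 4 with either of these tests, DESeq2, library size alone or no filter, 2 higher and 2 lower. With the offsets they numbered 4 as well, 3 higher and 1 lower. The study names edgeR without its test, so which of these counts is nearest to its own is not known. Constitutive proteasome calls fell to 1 with the offsets, against 2.

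Leaving out each sample in turn gave 10003 to 10312 genes called, 2326 to 4084 past the threshold of the study, 7 to 9 members called, 3 members past that threshold in every fit, and a median of -0.17 to -0.10. Calls numbered 11 to 13 in the antigen processing list, 14 to 16 among regulators and 2 to 3 in the constitutive proteasome list.

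The deviations of same-numbered samples correlated at -0.37, 0.18 and -0.23 for replicates 1, 2 and 3, so the numbers do not pair the samples. In a fit with replicate block, 10229 genes and 8 members were called, 2342 genes and 3 members passed the threshold of the study, and the median of the members was -0.14. The block changed the call of no member.

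HLA-F and PSMB9 rested on the fewest counts of the 9 genes, and their standard errors were the largest. Rows on alternate chromosome 6 haplotypes numbered 35, and none of the 15 transcripts of the members was among them.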

Other observations

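Genes encoding class I-like molecules and ligands of natural killer and T cell receptors were mostly lower. Of 12 listed, 10 were tested, of which 2 were higher, 7 lower and 1 was not called, with a median log2 fold change of -0.45, where 37.1% of all genes tested were higher and 38.5% lower. MICB, a stress-induced ligand of an activating receptor of natural killer cells, rose by 1.35 on the log2 scale (SE 0.09) from 7.63 to 19.3 CPM, and ULBP2, a ligand of the same receptor, fell by 1.04 on the log2 scale (SE 0.10) from 24.6 to 11.8 CPM. CD274, which encodes the checkpoint ligand PD-L1, fell by 1.37 on the log2 scale (SE 0.11) from 12.7 to 4.92 CPM. PROCR, a receptor with a class I-like fold that binds protein C, fell by 0.67 on the log2 scale (SE 0.07). These values are from the same edgeR fit as those of the class I genes.

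Class II genes were close to silent. Of 9 listed, 7 did not pass the filter, with at most 5 counts in any sample. HLA-DMB rose from 0.303 to 1.20 CPM (log2 fold change 1.91, SE 0.35), and HLA-DMA was at 3.53 and 2.89 CPM (log2 fold change -0.31, SE 0.18, adjusted p 0.127 by edgeR's quasi-likelihood test).

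The mean profile of the 9 class I genes over the 6 samples was nearly flat, because members with opposite changes were averaged. Of 9478 genes compared, those nearest to this mean were RAD50, ZNF569, IMMT, ZMYND8 and DAAM1, with root mean square differences of 0.019 to 0.025 on the log2 scale. Their log2 fold changes lay between -0.05 and -0.02.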
